A study of Mus musculus with 24 samples.

Results

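The 6 Pax genes of the neural tube, Pax2, Pax3, Pax5, Pax6, Pax7 and Pax8, were followed in P19 cells under 4 retinoids. They were chosen by symbol as the Pax genes that mark positions in the embryonic brain and spinal cord. Each had 1 probe set annotated to it alone, so the 6 made up 6 of the 19938 genes in the table. P19 is a mouse embryonal carcinoma line, a tumour line in an embryo-like undifferentiated state that can form nerve cells when given retinoic acid. Cells grew as a monolayer on gelatine, in a medium with both plain and delipidated calf serum.

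Of the 24 Affymetrix Mouse Gene 1.0 ST arrays, 4 came from P19 cells given EtOH (ethanol), numbered 1 to 4 with no time label. The others had 1 array each at 2, 6, 24, 48 and 72 h of 4 agents. These were ATRA (all-trans retinoic acid, 1 µM), BMS753 (an agonist of the retinoic acid receptor RARα, 1 µM), BMS641 (RARβ agonist, 0.1 µM) and BMS961 (RARγ agonist, 0.1 µM). Each agent was compared with EtOH, and agents were compared with each other only where the dose was the same. Because EtOH has no time label, time in culture and agent cannot be told apart from the EtOH comparison alone. The labels do not say whether arrays came from separate cultures, so the p-values measure the spread between these arrays. That spread may be technical, and where times are pooled it includes change over time. In extracts of whole cultures, fewer cells of a type and less RNA per cell cannot be told apart.

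Pax proteins are transcription factors that bind DNA through a paired domain. In the embryonic neural tube Pax3 and Pax7 mark its dorsal side, Pax6 marks progenitors of the middle and ventral regions, and Pax2, Pax5 and Pax8 act together at the boundary of midbrain and hindbrain. Retinoic acid, made by the neighbouring somites in the embryo, promotes neural differentiation and hindbrain and spinal cord identity, and its receptors sit on DNA and change transcription when the ligand binds.

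Values are log2 intensities as the authors deposited them. A change is a difference of log2 values, so 1 unit is 2-fold, and levels are compared within a gene and never between genes. The array medians lay between 6.50 and 6.68. The median over genes of each treated array stood −0.04 to 0.06 from the mean of the EtOH medians. The undifferentiated state was checked with 8 marker genes: in EtOH, Pou5f1, which encodes the pluripotency factor Oct4, had a level of 12.90, while on the ATRA array at 72 h it was 5.45. Zfp42, another of the 8, had an EtOH level of 4.83 and a late ATRA change of 0.02 ± 0.09 (SE). The deposited table gives no detection value, so whether a low level lies above background is not known. In EtOH the 6 Pax genes lay between 5.63 (Pax5) and 6.80 (Pax8). With only the 13292 genes of highest mean over all 24 arrays kept, 5 of the 6 were retained and Pax5 was not. That mean includes the late arrays in which Pax3 was high. In EtOH alone Pax3 stood at percentile 31.6 of genes, so its retention does not show an EtOH level above background.

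Between 24 and 72 h, ATRA and BMS753 raised Pax6 and Pax3 strongly, and ATRA raised Pax2 by a small amount. Pax7 lay above EtOH at 48 and 72 h of both agents, but not at 24 h, and was not called over the late phase, and Pax5 and Pax8 showed no called change. Under BMS641 and BMS961, at their lower dose, 0 of the 6 were called. Pax6 stood higher with ATRA than with BMS753, whereas Pax3 reached its highest level with BMS753 at 72 h.

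**Figure D1:**
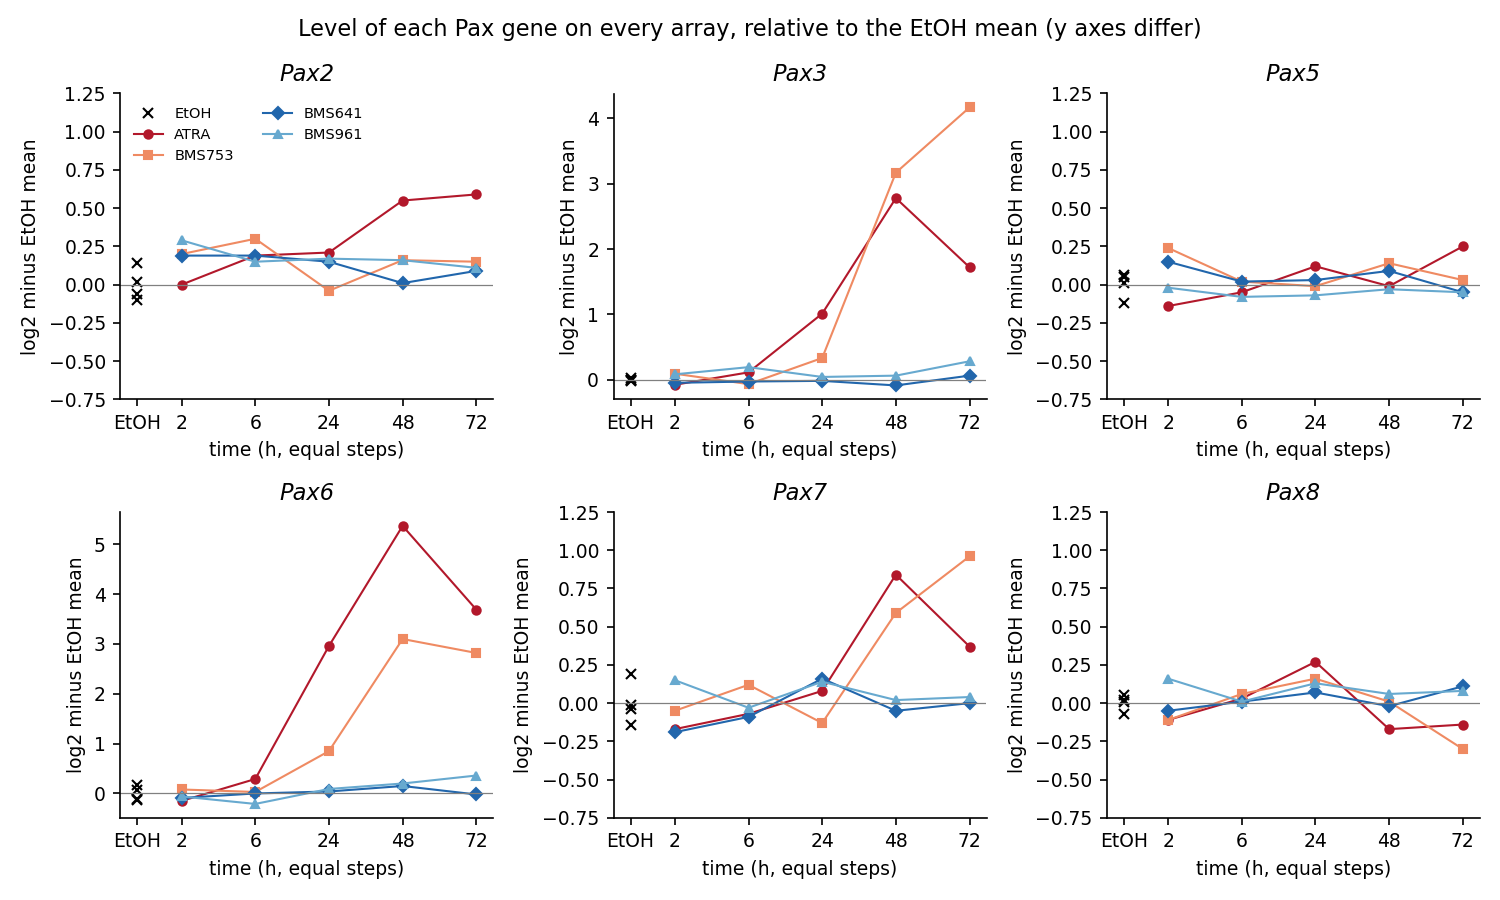
Level of each Pax gene on every array as log2 minus the mean of the 4 EtOH arrays (crosses), with 1 point per agent and time. Times are drawn at equal steps, and the y axes of Pax3 and Pax6 are longer than the others. ATRA lifts Pax6 by 5.37 at 48 h and BMS753 lifts Pax3 by 4.17 at 72 h, while Pax5 and Pax8 stay within 0.30 of the EtOH mean.

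Agents were first tested over the late times together. limma fitted all 24 arrays at once, with 24, 48 and 72 h as the late phase (n = 3 arrays per agent), 2 and 6 h as the early phase (n = 2) and EtOH (n = 4). The arrays of a phase are different times used as repeats. Only time terms shared by the 4 agents are removed, so the spread includes how an agent's course departs from the shared one. The threshold for a call was a p under 0.05 after Benjamini-Hochberg adjustment over all 19938 genes. ATRA late called 3 of the 6 Pax genes, all higher, against 36.9% of all genes (17.9% of all genes were called higher), so the count alone does not set the Pax genes apart. BMS753 late called 2 of the 6, both higher, against 13.5% of all genes (6.52% were called higher). The median late change of the 6 was 0.44 with ATRA, beside 0.03 for all genes, and 0.28 with BMS753, beside −0.01.

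Pax6, a regulator of eye, forebrain and spinal cord progenitors, had EtOH levels of 5.88, 5.90, 6.07 and 6.18. With ATRA it read 5.86 at 2 h, 6.30 at 6 h, 8.97 at 24 h, 11.38 at 48 h and 9.70 at 72 h. With BMS753 it read 6.08, 6.04, 6.86, 9.11 and 8.82 at the same times. All 3 late arrays of each of these agents lay above all 4 EtOH arrays, and the early arrays of BMS753 lay among them. Such a separation upward was found for 15.1% of all genes with ATRA late and for 9.73% with BMS753 late.

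Over the late phase Pax6 rose 16.1-fold with ATRA, a log2 change of 4.01 ± 0.36 (SE of the fit, n = 3 and 4, limma adjusted p = 2.76e-06, 95% interval 3.25 to 4.77). With BMS753 it rose 4.77-fold, by 2.25 ± 0.36 (adjusted p = 8.98e-04). Both calls held without any single EtOH array and without any single time. Ordered by mean level, ATRA late (10.02 ± 1.24, SD) and BMS753 late (8.26 ± 1.22) came first with overlapping arrays, and both lay above every array of the other 7 groups. Those 7 groups had means from 5.88 to 6.23, and each overlapped the next in order.

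Single times were tested in a second fit with a mean for each agent and time, in which the 4 EtOH arrays supply the spread for every lone array. A call there needed 2-fold or more besides an adjusted p under 0.05. Pax6 with ATRA was 7.78-fold higher at 24 h, 41.4-fold at 48 h and 12.9-fold at 72 h, all called (limma adjusted p = 2.82e-10, 1.57e-13 and 4.40e-12), against 2.10%, 6.42% and 9.58% of all genes. With BMS753 it was 8.56-fold higher at 48 h and 7.04-fold at 72 h, both called, against 3.13% and 5.83% of all genes. At 24 h of BMS753 it was 1.80-fold higher, under the 2-fold limit (adjusted p = 3.79e-04). At 6 h of ATRA the change was 0.29 ± 0.12 (adjusted p = 0.196), and 0 of the 6 Pax genes were called at 2 or 6 h with either agent, against 0.186% and 0.717% of all genes with ATRA and 0.0652% and 0.251% with BMS753.

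Start regions are shown because Pax6 and Pax3 both rose late with ATRA and with BMS753. RefSeq, on GRCm38.p6, gives 8 windows for 5 of the 6 genes, each of 250 bases before and 50 after an annotated start, out of 32851 windows in all. Pax3 is not among them. The windows printed are those of Pax6, with Pax7 and Pax8 as genes that were not called, and were picked after the values were seen. Each is written 5′ to 3′ on the gene's own strand. Capitals mark a match, on either strand, to AGGTCA or AGTTCA (core motifs bound by retinoic acid receptors), TGACAG (bound by Meis and Pbx proteins), CCAAT or TATAAA.
Pax6, upstream start, chr2:105668646-105668945, plus strand: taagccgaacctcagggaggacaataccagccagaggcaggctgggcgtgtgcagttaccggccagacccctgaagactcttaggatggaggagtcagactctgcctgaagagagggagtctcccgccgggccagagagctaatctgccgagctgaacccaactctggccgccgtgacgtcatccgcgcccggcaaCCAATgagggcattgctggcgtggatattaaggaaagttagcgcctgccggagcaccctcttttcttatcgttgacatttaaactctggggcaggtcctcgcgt
Pax6, downstream start, chr2:105682213-105682512, plus strand: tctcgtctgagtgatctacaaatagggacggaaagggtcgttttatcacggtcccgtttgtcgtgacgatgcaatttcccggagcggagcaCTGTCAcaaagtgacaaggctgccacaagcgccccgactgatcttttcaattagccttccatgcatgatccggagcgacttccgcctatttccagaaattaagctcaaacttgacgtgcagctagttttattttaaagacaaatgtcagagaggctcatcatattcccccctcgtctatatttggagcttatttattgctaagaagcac
Pax7, chr4:139832919-139833218, minus strand: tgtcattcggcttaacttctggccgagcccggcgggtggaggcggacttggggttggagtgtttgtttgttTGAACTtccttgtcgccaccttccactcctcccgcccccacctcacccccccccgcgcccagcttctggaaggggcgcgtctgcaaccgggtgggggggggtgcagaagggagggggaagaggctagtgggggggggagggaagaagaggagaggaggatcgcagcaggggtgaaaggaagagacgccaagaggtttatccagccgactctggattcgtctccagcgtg
Pax8, chr2:24475550-24475849, minus strand: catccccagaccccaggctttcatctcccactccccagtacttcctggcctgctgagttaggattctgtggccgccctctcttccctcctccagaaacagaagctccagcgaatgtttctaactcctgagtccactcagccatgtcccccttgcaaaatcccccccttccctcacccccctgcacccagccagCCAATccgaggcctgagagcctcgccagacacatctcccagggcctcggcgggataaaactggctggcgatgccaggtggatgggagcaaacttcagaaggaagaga
The upstream Pax6 window holds CCAAT 54 bases before the start, as the Pax8 window does 57 bases before its own. CCAAT is in 37.4% of all windows. The downstream Pax6 window holds TGACAG on the reverse strand 159 bases before the start (19.2% of all windows), and the Pax7 window holds AGTTCA on the reverse strand 179 bases before the start (14% of all windows). AGGTCA, in 16.3% of all windows, and TATAAA, in 13.6%, are in 0 of the 8 windows. Pairs of the 2 receptor motifs in tandem with 2 or 5 bases between them are in 0 of the 8 windows, and no such pair is in more than 8 of all windows. Each window printed holds a match, whereas the Pax2 and Pax5 windows, which are not printed, hold none. The letters describe these windows only.

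Pax3, which marks the dorsal neural tube, the neural crest and the early muscle lineage, read 5.77, 5.74, 5.75 and 5.75 in EtOH. With ATRA it read 5.67, 5.87, 6.77, 8.53 and 7.47 from 2 to 72 h. With BMS753 it read 5.85, 5.69, 6.09, 8.92 and 9.92. All late arrays of each of these agents lay above the EtOH arrays, as did those of 15.1% of all genes with ATRA and 9.73% with BMS753. The BMS753 array at 72 h was the highest of the 24, and ATRA peaked at 48 h.

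Over the late phase Pax3 rose 5.88-fold with BMS753, by 2.56 ± 0.48 (SE, limma adjusted p = 0.00283, n = 3 and 4), and 3.57-fold with ATRA, by 1.84 ± 0.48 (adjusted p = 0.00709). The ATRA call was lost without the 48 h arrays, where the change was 1.37 (adjusted p = 0.0787). The BMS753 call held without any single EtOH array and without any single time. BMS753 late (8.31 ± 1.99, SD) and ATRA late (7.59 ± 0.89) overlapped and lay above the other 7 groups, whose means ran from 5.71 to 5.89 with each overlapping the next. Against single times, Pax3 with BMS753 was 8.99-fold higher at 48 h and 18.0-fold at 72 h, and its 24 h change was 0.33 ± 0.09 (adjusted p = 0.0546). With ATRA it was 2.02-fold, 6.85-fold and 3.29-fold higher at 24, 48 and 72 h, all called. The 24 h value fell just below 2-fold after quantile normalization of the deposited values (log2 0.95) or median scaling (0.99).

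Pax7, the close relative of Pax3 in the dorsal neural tube and in muscle stem cells, read 6.18, 6.52, 6.28 and 6.32 in EtOH. With ATRA its levels from 2 to 72 h were 6.16, 6.25, 6.41, 7.17 and 6.69. With BMS753 they were 6.28, 6.45, 6.20, 6.92 and 7.29. The 48 and 72 h arrays of each agent lay above the EtOH arrays and the 24 h arrays lay among them. Over the late phase the change was 0.43 ± 0.18 with ATRA (SE, limma adjusted p = 0.0781, n = 3 and 4) and 0.48 ± 0.18 with BMS753 (adjusted p = 0.102), so neither was called. Without the 24 h arrays Pax7 passed with ATRA (0.60, adjusted p = 0.00231) and with BMS753 (0.78, adjusted p = 6.41e-04). Taking the spread from only the EtOH arrays also gave calls (adjusted p = 4.63e-04 and 3.46e-04). With BMS753 late these 2 settings called 5364 and 6247 of all genes, against 2683 in the main fit. At single times its change was 0.84 ± 0.12 at 48 h of ATRA (adjusted p = 4.52e-05) and 0.96 ± 0.12 at 72 h of BMS753 (adjusted p = 1.45e-05), each under 2-fold. Without EtOH replicate 2 the latter was 1.03, past 2-fold.

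Pax2, Pax5 and Pax8 form the other subgroup, known from the midbrain-hindbrain boundary, the inner ear, the kidney (Pax2 and Pax8), the thyroid (Pax8) and B cells (Pax5). Pax2 read 6.40, 6.64, 6.52 and 6.44 in EtOH and 6.50, 6.69, 6.71, 7.05 and 7.09 with ATRA. Its 3 late ATRA arrays lay above all EtOH arrays, as did those of 15.1% of all genes, and the 48 and 72 h arrays were the highest of the 24. Of the 9 groups EtOH had the lowest mean (6.50). ATRA late (from 6.71 to 7.09) overlapped the next in order, BMS753 early (from 6.71 to 6.80). It rose 1.37-fold with ATRA late, by 0.45 ± 0.09 (SE, limma adjusted p = 0.00105, n = 3 and 4). With BMS753 it read 6.71, 6.80, 6.46, 6.66 and 6.65, and the late change was 0.09 ± 0.09 (adjusted p = 0.585). Its early values with BMS753 were 0.25 ± 0.10 above EtOH without a call (adjusted p = 0.383).

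Pax5 spanned 0.39 over the 24 arrays, the least of the 6, and Pax8 spanned 0.57. Pax5 lay between 5.52 and 5.69 in EtOH and between 5.63 and 5.88 in the late ATRA arrays, which overlapped. Its late change was 0.12 ± 0.07 (SE) with ATRA and 0.05 ± 0.07 with BMS753. Pax8 lay between 6.73 and 6.85 in EtOH, and its late change was −0.01 ± 0.09 with ATRA (95% interval −0.20 to 0.18) and −0.05 ± 0.09 with BMS753 (−0.24 to 0.14). Its late arrays scattered on both sides of EtOH, from 6.63 to 7.07 with ATRA and from 6.50 to 6.96 with BMS753. At single times the Pax8 change furthest from 0 was −0.30, at 72 h of BMS753 (limma adjusted p = 0.0204), under 2-fold. None of the late changes of Pax5 and Pax8 against EtOH was called under the alternatives run.

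**Figure D2:**
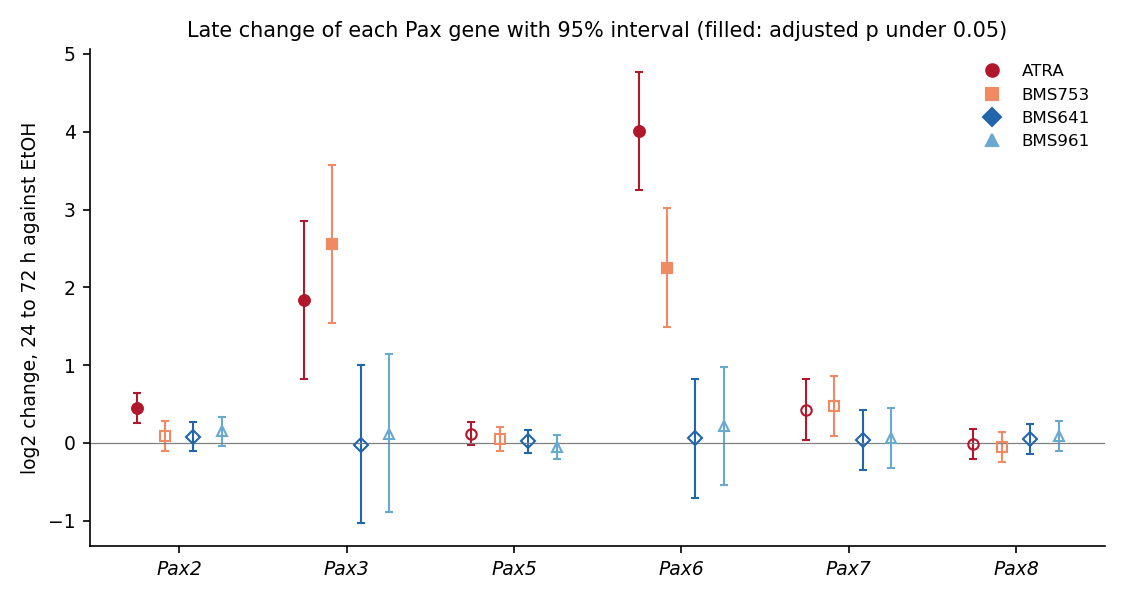
Late change (24, 48 and 72 h together, n = 3 arrays) against EtOH (n = 4) on the log2 scale for each Pax gene and agent, with the 95% interval of the fit and filled symbols where the adjusted p was under 0.05. Pax6 stands at 4.01 with ATRA and 2.25 with BMS753, Pax3 at 1.84 and 2.56, and the points of BMS641 and BMS961 lie between −0.05 and 0.22.

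BMS641 and BMS961, the RARβ and RARγ agonists at 0.1 µM, left the Pax genes close to EtOH. Late changes ran from −0.02 to 0.08 with BMS641 and from −0.05 to 0.22 with BMS961. limma called 0 of the 6 in each, and at an unadjusted p under 0.05 also 0 of the 6. Over all genes it called 0% with BMS641 and 0.00502% with BMS961, or 625 and 769 genes at an unadjusted p under 0.05. With only the EtOH arrays supplying the spread, it called 125 and 456 genes. The intervals of this fit were wide for Pax6 and Pax3: Pax6 had 0.06 (95% interval −0.71 to 0.82) with BMS641 and 0.22 (−0.54 to 0.98) with BMS961, and Pax3 had −0.02 (−1.03 to 1.00) and 0.12 (−0.89 to 1.14). The fit uses 1 spread per gene for all agents, so these widths include the changes over time with ATRA and BMS753. In the single-time fit, the Pax6 changes furthest from 0 had intervals of −0.11 to 0.40 (BMS641, 48 h) and 0.11 to 0.61 (BMS961, 72 h).

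The late Pax6 levels were 6.05, 6.16 and 5.99 with BMS641 and 6.10, 6.21 and 6.37 with BMS961. For BMS961 the 3 late arrays of Pax3 (5.79, 5.81 and 6.03) and of Pax8 (6.93, 6.86 and 6.88) lay above all EtOH arrays, as did those of 5.88% of all genes. At 72 h of BMS961, Pax6 stood at 0.36 ± 0.12 and Pax3 at 0.28 ± 0.09 above EtOH, without a call (limma adjusted p = 0.232 and 0.253, with 0.0401% of all genes called). BMS961 and BMS641 were compared with each other at their shared dose, and 0 of the 6 differed late, against 0% of all genes. For Pax6 the difference was 0.16 (95% interval −0.65 to 0.97) and for Pax3 0.14 (−0.95 to 1.23).

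Early arrays (2 and 6 h) gave 0 calls among the 6 with each of the 4 agents. limma called 0.858% of all genes with ATRA, 0.306% with BMS753, and 0% with BMS641 and with BMS961 (468 and 582 genes at an unadjusted p under 0.05). At an unadjusted p under 0.05, 1 member passed with BMS753, where 2081 genes (10.4%) did, and 1 with BMS961, Pax2 in each case. Between ATRA and BMS753 early, 0 of the 6 differed (0% of all genes, 1923 at an unadjusted p under 0.05), with Pax5 at −0.23 passing at an unadjusted p of 0.0261. Between BMS961 and BMS641 early, 0 of the 6 differed, also unadjusted (0% of all genes, 292 unadjusted).

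ATRA and BMS753, given at 1 µM each, were then compared directly. Late, Pax6 was 3.37-fold higher with ATRA, a log2 difference of 1.75 ± 0.38 (SE, n = 3 and 3, limma adjusted p = 0.0128, 95% interval 0.94 to 2.57). Pax2 was 1.28-fold higher, by 0.36 ± 0.09 (adjusted p = 0.0266), and it was higher with ATRA at each of the 3 late times. These were 2 of the 6, against 10.4% of all genes (4.44% higher and 5.93% lower). Without the 48 h arrays 0 of the 6 were called, with Pax6 at 1.49 (adjusted p = 0.0509) and Pax2 at 0.35 (adjusted p = 0.123). Without the 72 h arrays only Pax6 was called, and Pax2 had 0.32 (adjusted p = 0.121).

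The other members did not pass. Pax3 differed by −0.72 (95% interval −1.81 to 0.37, limma adjusted p = 0.363), Pax7 by −0.05 (−0.46 to 0.37), Pax5 by 0.07 (−0.09 to 0.22) and Pax8 by 0.03 (−0.17 to 0.24). Without the 24 h arrays the Pax3 difference was −1.42 and passed (adjusted p = 0.00393), and with only EtOH arrays supplying the spread −0.72 passed (adjusted p = 1.59e-06). Over all genes these 2 settings called 4735 and 7024 genes, against 2067 in the main fit. The sign of the Pax3 difference was not the same at each time.

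At single times Pax6 was 2.11 ± 0.15 higher with ATRA at 24 h (SE, limma adjusted p = 5.52e-07) and 2.28 ± 0.15 at 48 h (adjusted p = 6.46e-08), both called, and 0.88 ± 0.15 higher at 72 h, under 2-fold. Pax3 was 0.68 ± 0.12 higher with ATRA at 24 h (adjusted p = 0.00193, under 2-fold), −0.39 ± 0.12 at 48 h (adjusted p = 0.0262, under 2-fold) and −2.45 ± 0.12 at 72 h, where the call was of a 5.45-fold lower level (adjusted p = 2.12e-09). Pax7 differed by 0.21, 0.24 and −0.60 at 24, 48 and 72 h, the last with an adjusted p = 0.00667 but under 2-fold. Of all genes, 0.893%, 3.01% and 4.47% were called at 24, 48 and 72 h.

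**Figure D3:**
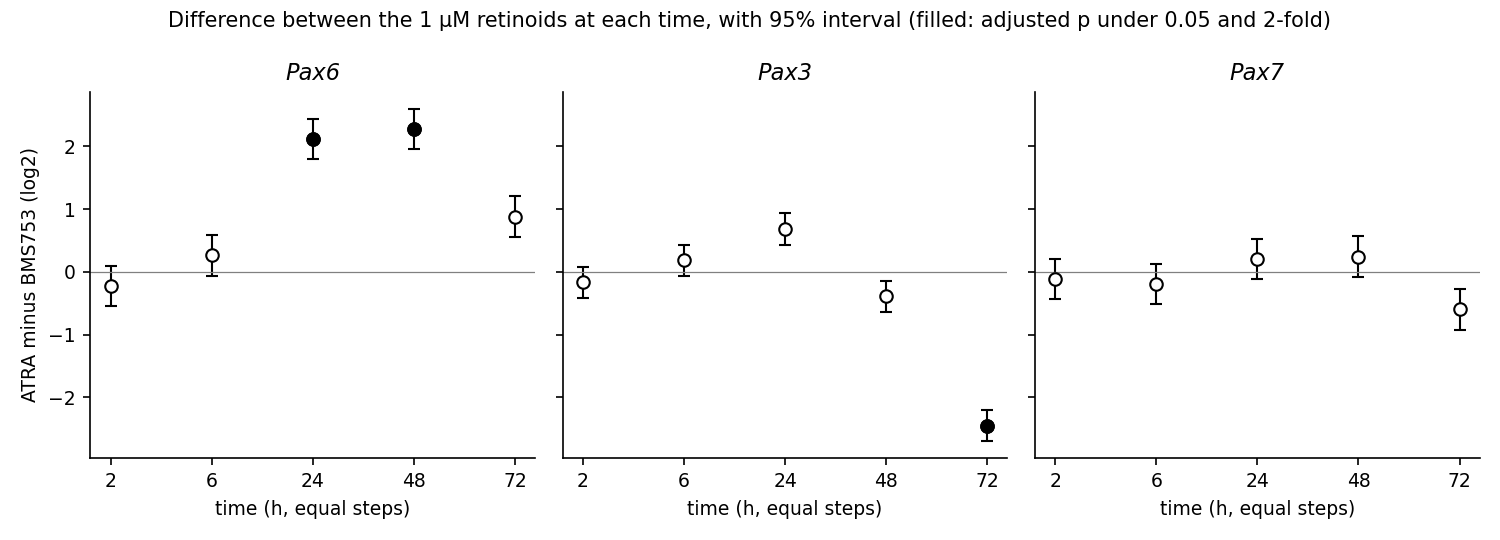
Difference between ATRA and BMS753 at each time for Pax6, Pax3 and Pax7 on the log2 scale, with 1 array per agent and time and the 95% interval of the single-time fit. Filled points passed an adjusted p under 0.05 and 2-fold. Pax6 is above 0 at 24, 48 and 72 h, and Pax3 goes from 0.68 at 24 h to −2.45 at 72 h. The 3 genes drawn were chosen after their values were seen.

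The step from 48 to 72 h was tested after the values were seen, as 3 added contrasts in the single-time fit. With ATRA, Pax6 fell by 1.68 ± 0.15 (SE, limma adjusted p = 1.26e-06) and Pax3 fell by 1.06 ± 0.12 (adjusted p = 1.04e-05), both called, against 3.42% of all genes. Pax7 changed by −0.47 ± 0.15, under 2-fold (adjusted p = 0.0302). With BMS753, Pax3 changed by 1.00 ± 0.12 (adjusted p = 4.23e-05), just under 2-fold, and by 1.02 or 1.04, past it, after quantile normalization or median scaling. Pax6 changed by −0.28 ± 0.15 (adjusted p = 0.297) and Pax7 by 0.37 ± 0.15 (adjusted p = 0.151). For BMS753, 1.64% of all genes were called.

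The steps themselves differed between the agents. The ATRA step minus the BMS753 step was −2.06 ± 0.17 for Pax3 (SE, limma adjusted p = 1.01e-06) and −1.40 ± 0.21 for Pax6 (adjusted p = 2.82e-04), both called, against 4.29% of all genes. For Pax7 it was −0.84 ± 0.21 (adjusted p = 0.0123), under 2-fold. For Pax2 it was 0.06 ± 0.19 (95% interval −0.35 to 0.47), with a step of 0.04 ± 0.14 under ATRA. Each step rests on 1 array per agent and time.

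**Figure D4:**
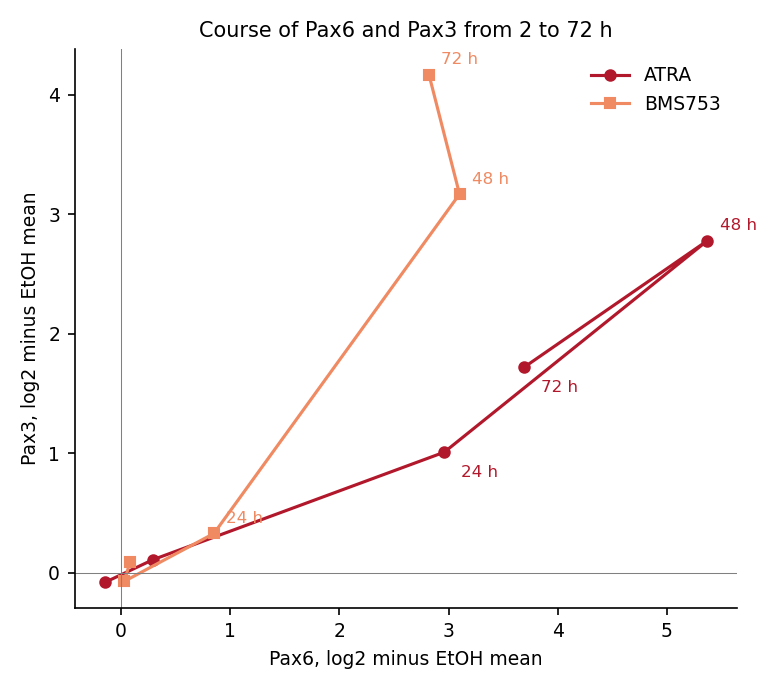
Course of Pax6 (x axis) and Pax3 (y axis) as log2 minus the EtOH mean, with 1 point per time joined in order from 2 to 72 h for ATRA and BMS753. The 24, 48 and 72 h points are named. ATRA goes to 5.37 for Pax6 and 2.78 for Pax3 at 48 h and then back to 3.69 and 1.72, whereas BMS753 goes from 3.10 and 3.17 at 48 h to 2.82 and 4.17 at 72 h.

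Among the members, levels over the 20 treated arrays had the highest Pearson r between Pax3 and Pax7 (r = 0.93, Spearman rho = 0.57) and the highest rho between Pax3 and Pax6 (r = 0.84, rho = 0.72). Pax6 and Pax7 had r = 0.80 and rho = 0.54, and Pax2 and Pax6 r = 0.63 and rho = 0.24. The treated arrays share agents and times, and the high late arrays of ATRA and BMS753 stand apart from the rest, so these are descriptions without a test. Ranks over the many unchanged arrays give lower values than Pearson's r for each of these pairs.

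Of all other named genes, those most like each member over the same 20 arrays were found for the 3 members that spanned at least 1 log2 unit. For Pax3 they were Wnt1, a secreted signal of the dorsal midline (r = 0.991), Rfx4 (0.987), Sdk2 (0.980), Crb2 (0.978) and Phc2 (0.975). For Pax6 they were Tbc1d1 (0.980), App, the amyloid precursor gene (0.977), Irx5 (0.976), the growth factor gene Mdk (0.975) and Hoxa5 (0.973). For Pax7 they were Zfp41 (0.945), Rcn1 (0.942), Ednrb, an endothelin receptor of neural crest (0.941), Wnt10b (0.935) and Rprm (0.932). The lists do not share a gene.

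Wnt1 was picked for its likeness to Pax3 over these arrays, so its course is a description only. Its EtOH levels were 5.17, 5.16, 5.24 and 5.19. At 24, 48 and 72 h it read 6.09, 8.69 and 6.96 with ATRA and 5.68, 9.37 and 9.82 with BMS753. Within each agent it was highest at 48 h of ATRA and at 72 h of BMS753.

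The nearest measured protein-coding genes on the chromosome of each member, in the order of RefSeq annotation, were looked at after the members' values were seen. Of the 13, 6 were called with ATRA late and 2 with BMS753 late, against the 36.9% and 13.5% of all genes given above. Beside Pax3, Epha4, a receptor of ephrins, stood at 1.84 ± 0.28 with ATRA late and 2.38 ± 0.28 with BMS753 late (SE, limma adjusted p = 1.62e-04 and 1.05e-04). On its other side Sgpp2, a phosphatase of sphingosine phosphate, stood at 0.88 ± 0.45 (adjusted p = 0.145) and 1.90 ± 0.45 (adjusted p = 0.0120), a call lost without the 48 h arrays (1.55, adjusted p = 0.0863) or the 72 h arrays (1.30, adjusted p = 0.0730). Pax6 is overlapped by Elp4, which had 0.09 ± 0.06 and 0.12 ± 0.06, neither called, and its neighbour Immp1l had 0.02 and 0.04. Its other neighbour Rcn1 had 0.37 ± 0.12 with ATRA, a call lost without EtOH replicate 1 (0.35, adjusted p = 0.0528) or the 48 h arrays (0.18, adjusted p = 0.240), and 0.35 ± 0.12 with BMS753 (adjusted p = 0.0623). Beside Pax2, Slf2 had 0.76 ± 0.15 with ATRA (adjusted p = 0.00146), a larger change than that of Pax2 itself, and Hif1an 0.22 ± 0.08, a call lost without EtOH replicate 2, 3 or 4 (adjusted p from 0.0724 to 0.0974), the 48 h arrays (0.237) or the 72 h arrays (0.193). Beside Pax5, Melk had −0.22 ± 0.06 with ATRA (adjusted p = 0.00673), lost without the 72 h arrays (−0.17, adjusted p = 0.0534). Beside Pax8, Cacna1b, a calcium channel gene, had −0.70 ± 0.19 with ATRA (adjusted p = 0.00979), lost without the 48 h arrays (−0.46, adjusted p = 0.0569). These 4 were not called with BMS753, and the remaining neighbours (Zcchc7, Tas1r2, Klhdc7a and Psd4) were called with neither agent.

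The rest of the Pax network and markers of the tissues in which Pax genes act were read from 13 lists. With ATRA late, Pax1, Pax4 and Pax9, which act in the skeleton, pancreas and pharynx, gave 0 calls of 3, as they did with BMS753 (leaving out the 72 h arrays gave 1 call with ATRA, and leaving out those of 24 h gave 1 with BMS753). Of 11 measured genes of the Eya, Dach and sine oculis (Six4 and relatives) families, which work with Pax proteins in the eye, ear, kidney and muscle, 6 rose and 1 fell. Dach1 rose 8.01-fold (SE 0.48 on the log2 scale), Eya4 by 2.21 ± 0.37, Dach2 by 1.48 ± 0.38 and Six4 by 0.81 ± 0.14, and Eya1 fell by 0.68 ± 0.11. With only the 13292 genes of highest mean kept, 3 rose. That setting takes dim genes out of the test, and in EtOH Dach1, Dach2 and Eya4 stood at percentiles 18.7, 19.1 and 24.2 of genes. With BMS753, 4 of the 11 rose and 0 fell, with Dach1 at 2.28 ± 0.48 and Eya4 at 1.38 ± 0.37, and leaving out 1 late time gave 7 rises of the 11 (24 h), 1 (48 h) or 0 (72 h). The median of the list was 0.48 with ATRA and 0.33 with BMS753.

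Of 21 measured genes that mark dorsoventral position in the neural tube, 7 rose and 1 fell with ATRA late, and 7 rose and 1 fell with BMS753. With ATRA, Irx3, which bounds the intermediate neural tube, rose by 2.08 ± 0.42 (SE), Wnt1 by 2.06 ± 0.56, Dbx1 by 2.02 ± 0.40 and Gli3, a Hedgehog pathway factor, by 1.42 ± 0.24. The Wnt1 call was lost without the 48 h arrays (1.34, adjusted p = 0.104). Msx2 and Gli1 were also among the ATRA rises. The Msx2 call was lost without the 72 h arrays (0.50, adjusted p = 0.103). The Gli1 call was lost without EtOH replicate 1 (0.29, adjusted p = 0.0806) or 4 (0.33, adjusted p = 0.0546) or the 48 h arrays (0.32, adjusted p = 0.0969). With BMS753, Wnt1 rose by 3.10 ± 0.56, Irx3 by 2.01 ± 0.42, Msx1, a dorsal factor, by 1.90 ± 0.48 and Gli3 by 1.29 ± 0.24. Without the 48 h arrays 2 of the 21 were higher with BMS753, and without the 72 h arrays 4. Those lost without the 48 h arrays included Msx1 (1.74, adjusted p = 0.0908) and Gli3 (1.03, adjusted p = 0.0556), and Msx1 was also lost without the 72 h arrays (1.02, adjusted p = 0.159). The gene that fell was Nkx2-9, at −0.67 ± 0.07 with ATRA and −0.38 ± 0.07 with BMS753, named after its value was seen, and 2 fell with ATRA without the 24 h arrays. The list medians were 0.13 and 0.14.

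Genes that place the midbrain-hindbrain boundary, where Pax2, Pax5 and Pax8 act, went both ways. Of 9 measured, 4 rose and 3 fell with ATRA late and 1 rose and 3 fell with BMS753. Among the ATRA rises, the Fgf17 call was lost without the 48 h arrays (0.18, adjusted p = 0.0723). The Fgf18 call was lost without EtOH replicate 1 (0.40, adjusted p = 0.0557) or the 72 h arrays (0.16, adjusted p = 0.150). Gbx2, which marks the hindbrain side, rose by 2.91 ± 0.31 (SE) with ATRA and 1.92 ± 0.31 with BMS753, and it had already risen early with ATRA (2.11 ± 0.35, limma adjusted p = 0.00684). Otx2, which marks forebrain and midbrain, fell by 3.41 ± 0.51 with ATRA. With BMS753 Otx2 stood at −1.62 ± 0.51, a call lost without any single EtOH array (adjusted p from 0.0846 to 0.0936), the 48 h arrays (0.136) or the 72 h arrays (0.108). En2, an engrailed gene of the boundary, fell by 0.61 ± 0.09 with ATRA and by 0.49 ± 0.09 with BMS753. The list medians were −0.06 and 0.05.

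Of 8 general neural progenitor markers, 1 rose with ATRA late, Msi1 by 0.73 ± 0.13 (SE), and 3 rose with BMS753, namely Fabp7 by 1.27 ± 0.32, Msi1 by 0.73 ± 0.13 and Zic1 by 0.55 ± 0.14, with 0 lower in each. The Fabp7 call was lost without the 72 h arrays (0.65, adjusted p = 0.214). Without the 24 h arrays 4 rose and 1 fell with ATRA, and 5 rose with BMS753. With only the EtOH arrays supplying the spread, 4 rose and 2 fell with ATRA, and 5 rose and 2 fell with BMS753. The list mean in late arrays lay 0.08 to 0.36 above EtOH with ATRA and 0.09 to 0.77 with BMS753. Of 8 carcinoma state markers, 6 fell with ATRA, with Tdgf1 at −4.87 ± 0.82, Utf1 at −4.16 ± 0.67, Pou5f1 at −4.07 ± 0.81 and Nanog at −2.15 ± 0.51, the last a call lost without the 48 h arrays (−1.52, adjusted p = 0.0558). With BMS753 2 fell, Tdgf1 (−2.74 ± 0.82) and Dppa4 (−0.28 ± 0.08), while 0 did without any single EtOH array, the 48 h arrays or the 72 h arrays. Leaving out 24 h gave 4 that fell.

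Pax3 and Pax7 are also genes of neural crest and of somites, and Pax2 and Pax8 of the kidney, so markers of those tissues are given beside them. Of 9 neural crest markers, 3 rose and 1 fell with ATRA late: Ednrb rose by 2.17 ± 0.54 (SE), Sox9 by 1.60 ± 0.29 and Ets1 by 0.83 ± 0.22, and Foxd3 fell by 2.19 ± 0.27. Without the 48 h arrays the Ednrb call was lost (1.41, adjusted p = 0.0822), and without the 24 h arrays 5 rose. With BMS753, Ednrb (1.96), Tfap2b (1.92) and Twist1 (0.88) passed and Foxd3 fell by 1.44 ± 0.27. All 3 rises were lost without any single EtOH array, the 48 h arrays or the 72 h arrays, whereas 6 rose when 24 h was left out. The Foxd3 call was lost without the 48 h arrays (−1.27, adjusted p = 0.0502). The list mean in late arrays lay −0.09 to 1.07 from EtOH with ATRA and −0.07 to 1.36 with BMS753.

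Of 10 somite and muscle markers, 3 rose and 2 fell with ATRA late. Foxc2 rose by 2.43 ± 0.63 (SE), Meox1, a gene of early somites, by 2.14 ± 0.40 and Lbx1 by 0.32 ± 0.08, and Tcf15 fell by 0.31 ± 0.07. The other fall, Tbx6 (−0.28 ± 0.09), was lost without EtOH replicate 2 (−0.27), 3 (−0.24) or 4 (−0.27) or the 48 h arrays (−0.20). With BMS753 1 passed, Meox1 at 1.52 ± 0.40, a call lost without EtOH replicate 1 (1.46, adjusted p = 0.0531), the 48 h arrays (1.55, adjusted p = 0.0761) or the 72 h arrays (0.77, adjusted p = 0.213). The list mean in late arrays lay 0.07 to 0.83 above EtOH with ATRA and −0.08 to 0.36 from it with BMS753. The part of crest and somite cells in the levels of Pax3 and Pax7 was not tested.

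Of 6 measured kidney markers, 5 rose and 1 fell with ATRA late: Lhx1 rose by 2.91 ± 0.40 (SE), Wt1 by 2.22 ± 0.53, Gata3 by 2.10 ± 0.33 and Osr1 by 1.90 ± 0.46, beside the small rise of Pax2. With BMS753, Lhx1 (1.84 ± 0.40), Ret (1.23 ± 0.28) and Gata3 (1.20 ± 0.33) passed, and 0 of the 6 were higher without the 48 h or the 72 h arrays. The Gata3 call was also lost without any single EtOH array (limma adjusted p from 0.0521 to 0.0674). The list mean in late arrays lay 0.34 to 2.34 above EtOH with ATRA and −0.02 to 1.27 from it with BMS753. The part of such cells in the level of Pax2 was not tested. Several of these genes also mark neurons, as Lhx1 and Gata3 do in the spinal cord.

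Markers of tissues of Pax5, Pax8, Pax6 and Pax4 were read as well. Of 6 measured B cell markers, 0 were called with ATRA or BMS753 late (with 1 higher and 1 lower, respectively, without the 24 h arrays). Of 4 measured thyroid markers, Tshr, the thyrotropin receptor, rose by 2.17 ± 0.32 (SE) with ATRA, and Foxe1 stood at −0.21 ± 0.07, a call lost without EtOH replicate 1 (−0.21), 3 (−0.20) or 4 (−0.21), the 48 h arrays (−0.12) or the 72 h arrays (−0.22). With BMS753 0 of the 4 were called. Of 5 measured eye and lens markers, Lhx2, also a forebrain gene, rose by 1.17 ± 0.29 with ATRA and 1.89 ± 0.29 with BMS753. Of 5 islet markers 3 passed with ATRA, with Neurod1, also a gene of neurons, at 1.51 ± 0.38, and 0 with BMS753. The other islet calls, Isl1 (0.39) and Sst (0.16), were lost without EtOH replicate 1, 3 or 4 or the 72 h arrays.

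**Figure D5:**
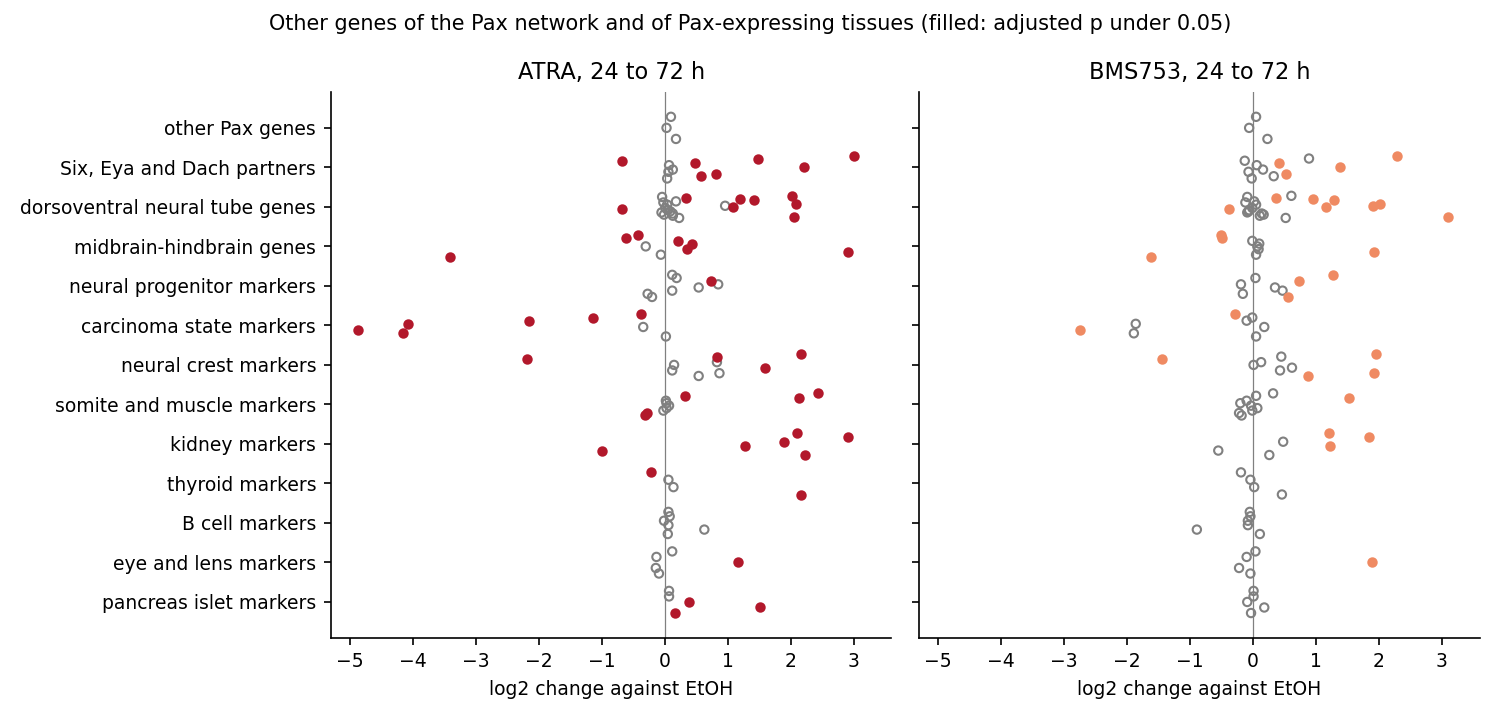
Late change against EtOH of each measured gene of the 13 lists on the log2 scale, for ATRA (left) and BMS753 (right), 1 point per gene with filled points at an adjusted p under 0.05. Among carcinoma state markers Tdgf1 reaches −4.87 with ATRA, the dorsoventral gene Wnt1 reaches 3.10 with BMS753, and none of the 3 other Pax genes is filled in either panel.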

How the data were processed

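The 24 arrays carry log2 intensities per probe set that the authors made with Affymetrix Expression Console 1.1, per the submitters' processing notes. The background correction, summarization and normalization are not given in the sources used here, and the scale was judged from the range of 2.86 to 14.3. Of 35556 deposited probe sets, 21789 had 1 gene symbol in the platform annotation, 1621 had several and 12146 were unnamed here. For the 999 genes with several, the probe set with the highest mean was kept, leaving 19938 genes, and none was removed for low signal. Two-sided tests by limma 3.58.1 (R 4.3.3), moderated with a mean-variance trend, gave 12 phase comparisons with time terms shared by the agents, 20 single-time comparisons with EtOH and 10 between agents of equal dose. The phase fit had 12 residual degrees of freedom and a prior of 3.10. The single-time fit drew its spread from the EtOH arrays, with 3 and a prior of 10.3. The number of arrays limits precision. The phase fit was tested on simulated data for ATRA late against EtOH only. Each changed gene there had the same shift at all late times and noise scaled to the EtOH arrays, without change over time. The single-time fit was not tested in that way. Genes named are the 6 members, up to 4 called genes of largest change per list and comparison, and the 5 genes most correlated with each member spanning 1 log2 unit. Chromosomal neighbours, Pax1, Pax4, Pax9, Eya1, Nkx2-9, Tbx6 and Zfp42 fall outside that rule and were named after their values were seen. Fgf17, Fgf18, Gli1 and Msx2 were also named after their values were seen, for calls that were lost. The members and lists were chosen with earlier results of these data known, so p-values over the lists are not given. Alternatives were the dimmest 33.3% of genes left out, quantile normalization, median scaling, the mean of probe sets, robust moderation, no time term, the EtOH spread alone, and each EtOH array or time left out. F9 cells were not analysed here.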

Additional observations from a re-analysis of the deposited data

Results flagged for a closer look

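Pax6 and Pax2 differed between ATRA and BMS753, the agents given at 1 µM, in a direct test over 24, 48 and 72 h. The log2 difference was 1.75 ± 0.38 (SE) for Pax6, higher with ATRA in 3 of 3 late times (limma adjusted p = 0.0128), and 0.36 ± 0.09 for Pax2, also higher in 3 of 3 (adjusted p = 0.0266). Over the alternatives the calls were lost without the 48 h arrays for both genes, and without the 72 h arrays for Pax2. The step from 48 to 72 h, an added contrast chosen after the values were seen, differed between the same agents by −2.06 ± 0.17 for Pax3 and −1.40 ± 0.21 for Pax6 (limma adjusted p = 1.01e-06 and 2.82e-04). Each of those steps rests on 1 array per agent and time, and no cause was tested. No Pax gene had an EtOH array that stood apart from the other 3.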

How the results depend on the processing

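Only the EtOH arrays carry replicate numbers, so there was no fit paired by replicate number. The agents share times, which the time terms of the fit match, and without those terms the late calls were the same Pax genes: 3 with ATRA, 2 with BMS753 and 2 for ATRA minus BMS753. The counts of Pax genes called against EtOH, late and early, stayed within 1.5 times of the values given under each alternative run. The count for ATRA minus BMS753 late was 2 (Pax6 and Pax2), and leaving out arrays gave 0 to 3: 3 without the 24 h arrays, where Pax3 joined, 1 (Pax6) without the 72 h arrays and 0 without the 48 h arrays. Of the values for the members, 2694 kept their side of the threshold, 6 lost a call and 9 gained one. Of values called in either setting, 0 reversed direction. Uncalled values that changed direction are counted among the 2694, as are all values with no call to lose. Calls over all genes were more fragile: BMS753 late had 2683, and 6247 when only EtOH arrays supplied the spread. It had 5364, 1051 and 1510 when the 24, 48 or 72 h arrays were left out. ATRA minus BMS753 late had 2067, and 7024, 4735, 317 and 1022 in the same order. BMS641 late and BMS961 late had 0 and 1, and 125 and 456 with the EtOH spread. Early counts of 171 (ATRA) and 61 (BMS753) became 1402 and 908 with the EtOH spread, and 18 and 2 without the 6 h arrays. The cause was not tested. Single-time values have 1 array each, and low signal could not be set against background.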
